A study of Mus musculus with 12 samples.

Results

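The type I interferon response genes described here are 42 mouse genes that interferon-alpha and interferon-beta are known to switch on, looked up by symbol in the annotation of the arrays. A gene listed with several probe sets was read by the probe set with the highest mean over all arrays, and it was tested where its log2 value reached 4 on at least 2 arrays. Of the 42 genes, 40 had a probe set of their own and 38 were tested, out of 18194 genes measured and 9307 tested in the whole series. Ifi204 and Oas3 averaged 2.22 and 2.25, close to the lowest values on the arrays, and were left out. No probe set was listed for Ifi44, and that of Isg15, the ubiquitin-like protein coupled to other proteins during the response, was shared with a second gene.

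Type I interferons bind the receptor formed by IFNAR1 and IFNAR2, and the kinases JAK1 and TYK2 then phosphorylate STAT2. With IRF9 it acts at the interferon-stimulated response element in the promoters of target genes. The targets include sensors of viral RNA, blockers of translation, enzymes that degrade or modify RNA, and factors such as IRF7 that amplify the signal. B cells carry the receptor, and a low level of many of these transcripts is usual in resting lymphocytes.

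The series measured mature B cells of the spleen from female C57BL/6 mice aged 10 weeks on 12 GeneChip arrays, in 6 groups of 2 arrays. Follicular (FO) cells, the main recirculating B cells, were sorted as B220+AA4.1-CD21intCD23+, and marginal zone (MZ) cells, which reside at the border of the white pulp, as B220+AA4.1-CD21highCD23low. Before the sort, cells were depleted with antibodies to T cell (CD3, CD5, CD90), myeloid (CD11b, F4/80, Gr-1) and erythroid (TER119) antigens and to CD43, CD95 and CD138. For each cell type the genotypes were mb1-cre(+/-)Bcl6(+/+), called wild type here, mb1-cre(+/-)Bcl6(+/flox), called heterozygous, and mb1-cre(+/-)Bcl6(flox/flox), called homozygous. All 12 samples, the wild type included, therefore carried mb1-cre, which expresses the recombinase throughout the B lineage, and differed by 0, 1 or 2 floxed copies of Bcl6, a transcriptional repressor best known from germinal centre B cells. Arrays are named by cell type, genotype and replicate number. Whether paired arrays of a genotype came from different animals is not stated in the labels; the p-values therefore reflect array-to-array spread that could be purely technical.

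Bcl6 itself was read by 2 probe sets. The weaker measured 4.94 and 5.61 on the FO wild-type arrays, 4.93 and 4.86 on the heterozygous and 2.36 and 2.48 on the homozygous arrays, and was near the lowest value on every MZ array. The stronger was higher in homozygous than in wild-type cells (12.70 and 12.88 against 11.95 and 11.65 in FO, 9.95 and 10.37 against 8.29 and 8.81 in MZ), and which of the probe sets lies in the floxed part is not given in the sources used here. The 4 measured B cell markers had a summed signal of 15.87 to 16.41 log2 units over the 12 arrays. Ms4a1 and Cd79b, the strongest, set most of that sum. Pax5 varied more, with means from 6.98 in FO homozygous to 8.18 in MZ heterozygous cells. All 4 markers were lower on FO wild-type replicate 1 than on replicate 2, with a median difference of -0.451 (53.8% of all tested genes were lower). MZ minus FO was -4.70 log2 units for Fcer2a, the gene of CD23. MZ wild-type replicate 1 stood apart in RNA quality, with a Gapdh signal 6.90 log2 units stronger at the transcript's end than at its start, against -0.20 to 0.63 on the other 11 arrays.

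The interferon-response genes differed most between the 2 FO wild-type arrays. The 38 tested genes averaged 9.48 log2 units on replicate 1 of this group, and 8.44 to 8.70 on each of the other 5 FO arrays. This array held the highest of the 6 FO values for 29 of the 38 genes (76.3%), and for 19.6% of all tested genes. The median gene of the list lay 0.88 above the median of the other 5 FO arrays, and the median of all tested genes lay at -0.018. Between the 2 wild-type FO arrays, 36 of 38 genes were higher on replicate 1, with a median difference of 0.895 and a range from -1.14 to 3.44, beside a median of -0.03 over all tested genes. The difference reached 1 log2 unit or more for 16 of the 38 (42.1%, against 2.85% of all tested genes), and it reached 1 or more in the other direction for Stat2 alone (3.24% of all tested genes). With 2 arrays a group, the difference between them has no test.

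**Figure D1:**
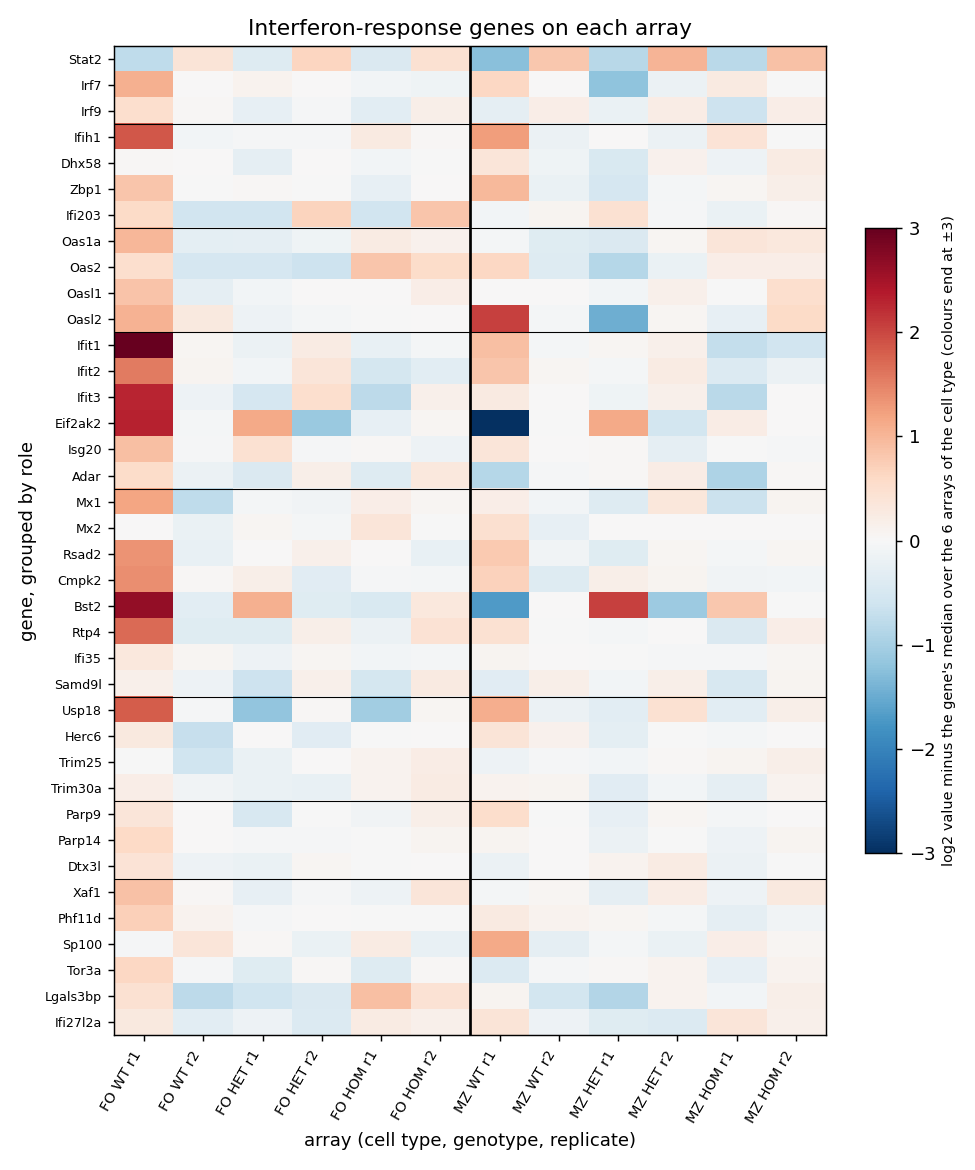
Each row is 1 of the 38 tested interferon-response genes, grouped by role, and each column is 1 array; the colour is the log2 value minus the gene's median over the 6 arrays of that cell type. The column of FO wild-type replicate 1 holds the highest FO value for 29 of the 38 genes, and Stat2 is the gene with its lowest FO value there.

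Of the role groups of the list, the effectors of translation and RNA stood highest by their median. All 6 tested effectors of translation and RNA had their highest FO value on that array on the probe set used, against 19.6% of all tested genes. Their median there was 2.004 above the other 5. Ifit1, which binds viral RNA that lacks the host's cap methylation, measured 6.65 and 3.21 in replicates 1 and 2 of FO wild-type cells, 2.97 and 3.39 in FO heterozygous cells, and 2.94 and 3.10 in FO homozygous cells. Its MZ values were 6.17 and 5.21 in wild-type, 5.34 and 5.43 in heterozygous and 4.56 and 4.69 in homozygous cells. The raised FO array lay above all MZ arrays, and the other 5 FO arrays lay under all of them.

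Ifit3, which works in a complex with Ifit1, measured 10.62 and 8.18 on the FO wild-type arrays, 7.81 and 8.84 on the heterozygous, and 7.54 and 8.47 on the homozygous. Ifit2, of the same family, measured 10.11 and 8.62, then 8.46 and 8.90, then 8.02 and 8.23. Eif2ak2 encodes PKR, the kinase that halts translation on sensing double-stranded RNA. It measured 8.54 and 6.18, then 7.36 and 5.12, then 5.99 and 6.28 on its strongest probe set. FO wild-type replicate 1 was the highest of the FO arrays for each of these genes. For Eif2ak2 the FO heterozygous arrays differed by almost as much, 2.24, and a second of its 3 probe sets moved alike while the third did not (6.29 on FO wild-type replicate 1, within 5.27 to 6.85 on the other FO arrays). Isg20, an exonuclease of single-stranded RNA, was 0.93 higher on replicate 1. Adar, which edits adenosine in double-stranded RNA, was 0.73 higher on its strongest probe set. Its other probe sets were not highest on that array, at 9.32 within 9.32 to 9.81 and at 8.76 within 8.18 to 9.02 on the other FO arrays.

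Among the other antiviral effectors, 6 of 8 were highest on this array (75.0%, against 19.6% of all tested genes), at a median of 1.302 above the other 5 FO arrays. Bst2, the membrane protein tetherin that holds budding virus at the cell surface, measured 9.25 there and 6.15 to 7.66 on the other FO arrays. Its arrays differed by 2.95 in FO wild-type cells but by more, 3.14, in MZ heterozygous cells (8.41 and 5.27). Rtp4 measured 10.72 against 8.67 to 9.46, and Mx1, a dynamin-like GTPase that traps viral ribonucleoprotein, 9.10 against 7.16 to 8.12. Rsad2 and its neighbour Cmpk2, which together make an RNA chain terminator from a nucleotide, measured 8.15 against 6.57 to 6.95 and 9.98 against 8.23 to 8.74. None of these 5 genes overlapped with the other FO arrays. Mx2 at 5.26 lay within their 5.05 to 5.62, and Samd9l at 13.25 within 12.48 to 13.36.

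Sensors and synthetases shared the pattern in part. Ifih1, the gene of the RNA sensor MDA5, measured 7.32 on FO wild-type replicate 1 and only 5.39 to 5.73 on the other 5 arrays. Dhx58, which encodes its relative LGP2, was level with them at 8.42 against 8.11 to 8.39. Zbp1, a sensor of left-handed nucleic acid, measured 9.53 against 8.45 to 8.73. The 4 tested oligoadenylate synthetase genes, whose active members make the second messenger that activates RNase L, were 0.75 to 1.29 higher on replicate 1 than on replicate 2. Oas1a was the highest of them in difference, at 9.31 and 8.03.

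The regulators and remaining genes were mixed. Usp18, the protease that removes ISG15 and damps receptor signalling, measured 9.69 against 6.68 to 7.92. Irf7 measured 8.66 against a narrow 7.47 to 7.71, and Irf9 10.84 against 10.03 to 10.50. Stat2 was the exception, at 6.41 the lowest of the FO arrays, with 6.73 to 7.83 on the others. It was also the only tested gene of the list that was lower on replicate 1 than on replicate 2 in all 6 groups, on both of its probe sets (1 of 38, or 2.63%, against 8.07% of all tested genes). The 3 PARP and DTX3L genes lay a median of 0.425 above the other FO arrays, and the 4 genes of ubiquitin-type pathways and TRIM proteins 0.303. Between the 2 wild-type FO arrays the 4 smallest absolute differences were those of Dhx58 (0.04), Mx2 (0.20), Ifi35 (0.24) and Trim30a (0.30).

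**Figure D2:**
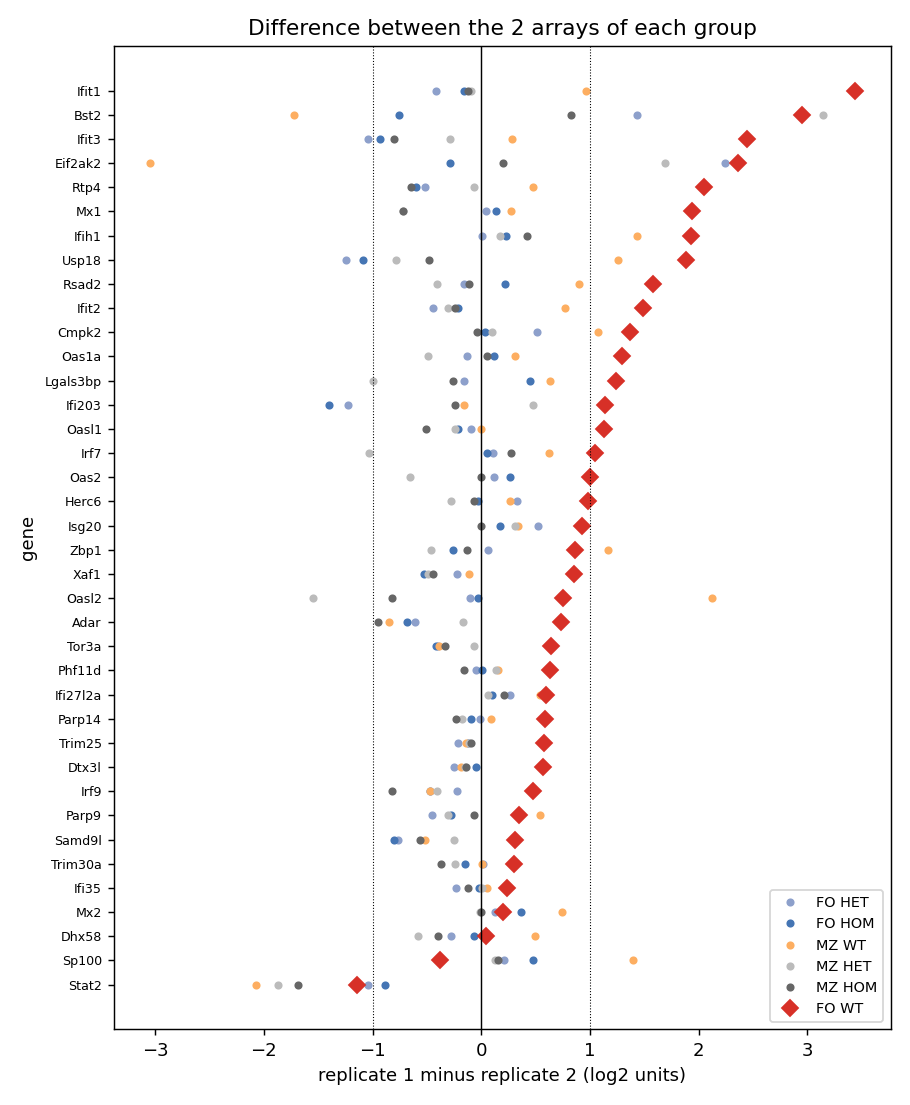
For each tested gene, the log2 value on replicate 1 minus that on replicate 2 in each of the 6 groups; red diamonds are the FO wild-type pair, circles the other 5 groups, and dotted lines mark differences of 1 log2 unit. The red diamonds lie right of 0 for 36 of 38 genes, and over the whole list the circles lie on both sides of 0. Genes with circles beyond a dotted line include Bst2, Eif2ak2, Oasl2, Stat2, Usp18 and Ifi203.

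In the other 5 groups the median difference between the 2 arrays was smaller, and it was below 0 in 4 of them. The median of replicate 1 minus replicate 2 over the 38 genes was -0.144 in FO heterozygous, -0.105 in FO homozygous, -0.24 in MZ heterozygous and -0.155 in MZ homozygous cells. Replicate 1 was higher by 1 or more for 2, 0, 2 and 0 genes of the list there, beside 2.31%, 2.39%, 1.33% and 3.55% of all tested genes. The 2 genes were Bst2 and Eif2ak2 in both heterozygous groups. Bst2 differed by 1.43 in FO and 3.14 in MZ heterozygous cells, and Eif2ak2 by 2.24 and 1.69. In the same 4 groups and order, replicate 1 was lower by 1 or more for 4, 2, 3 and 1 genes of the list. These shares were 10.5%, 5.26%, 7.89% and 2.63%, against 3.47%, 2.89%, 2.03% and 2.76% of all tested genes. MZ wild-type replicate 1 came second: its median difference was 0.293, 7 genes (18.4%, against 7.25% of all tested genes) were higher by 1 or more, and it held the highest of the 6 MZ values for 22 genes (57.9%, against 37.5%). Oasl2 measured 7.49 on that array and 3.97 to 6.02 on the other MZ arrays, and Ifih1 7.97 against 6.55 to 7.14. Eif2ak2 and Bst2 went the other way there, at 3.38 and 4.65, the lowest of the MZ arrays. This is the array with the strong Gapdh end bias, and the part of that bias in these values was not tested. Ifih1, Isg20 and Ifi27l2a were higher on replicate 1 in all 6 groups (3 of 38, or 7.89%, against 6.44% of all tested genes).

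Several genes with the largest difference carry the letters of the response element close to the start of transcription. Shown are the 160 bases before the start of Ifit1, Bst2 and Ifit3, the 3 genes with the largest difference, on their own strand (RefSeq, GRCm38.p6), with the letters GAAANNGAAA or, read on the opposite strand, TTTCNNTTTC in capitals. Ifit1 lies at chr19:34640729-34640888 (plus strand), Bst2 at chr8:71537473-71537632 (minus strand) and Ifit3 at chr19:34583369-34583528 (plus strand).
Ifit1: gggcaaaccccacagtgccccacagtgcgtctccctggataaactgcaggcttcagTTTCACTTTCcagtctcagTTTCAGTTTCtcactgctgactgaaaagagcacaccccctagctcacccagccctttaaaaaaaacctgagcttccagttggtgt
Bst2: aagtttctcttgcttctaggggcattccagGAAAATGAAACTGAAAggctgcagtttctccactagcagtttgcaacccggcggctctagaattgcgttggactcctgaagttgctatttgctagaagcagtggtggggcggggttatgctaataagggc
Ifit3: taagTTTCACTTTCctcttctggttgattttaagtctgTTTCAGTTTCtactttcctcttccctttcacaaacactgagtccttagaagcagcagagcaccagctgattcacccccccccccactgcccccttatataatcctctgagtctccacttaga
Counted from the start, the matches begin at -104 and -85 in Ifit1 and at -156 and -122 in Ifit3, and the 2 overlapping matches of Bst2 begin at -130 and -124. The match of Eif2ak2 lies 18 bases after the start.

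Windows of 250 bases before to 50 bases after the start were searched on both strands for these letters, which can overlap with themselves. A match was found for 1079 of the 27025 genes in the RefSeq table (3.99%), for 293 of the 7663 tested genes in it (3.82%) and for 10 of the 27 tested interferon-response genes in it (37.0%). Of the tested list genes that were 1 log2 unit or more higher on FO wild-type replicate 1, 13 of 16 had a promoter in the table and 8 of these (61.5%) held the letters. These were Ifit1, Ifit3, Bst2, Eif2ak2, Ifih1, Rsad2, Oas1a and Ifi203. Of the other 22, 14 had a promoter in the table and 2 (14.3%) held them, Stat2 and Trim30a. A match is a description of the letters and not of binding, and response elements with other letters were not searched.

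The wider pathway moved unevenly on the same array. The genes of interferon itself were near the lowest values: Ifnb1, Ifna1, Ifna2, Ifna4, Ifna5 and Ifng measured 2.21 to 2.36 on the FO arrays. The 6 tested receptor genes of interferons differed by a median of 0.06 between the FO wild-type arrays, with Ifnar1 at 9.05 and 9.04 and Ifnar2 at 9.77 and 9.29. Among 17 tested kinase, STAT, IRF and adaptor genes the median was -0.135 and none was 1 or more higher. On replicate 1, 3 of them were 1 or more lower (17.6%, against 3.24% of all tested genes), namely Jak1, Socs3 and Irf4. Irf4, a factor raised by B cell activation, measured 10.27 and 12.35. Among 34 other genes known to respond to interferon, 7 were 1 or more higher on replicate 1 (20.6%, against 2.85% of all tested genes). They were led by Slfn5 at 7.99 and 4.96, Ifitm3 at 8.89 and 6.67 and Ifit1bl1 at 10.23 and 8.41. A list of genes best known from the interferon-gamma response showed the difference for 8 of its 12 tested members (66.7%, against 2.85%), at a median of 1.454. Iigp1, an immunity-related GTPase, measured 5.75 and 2.26, Gbp6 10.17 and 7.86, and Irgm1 10.72 and 9.13. Iigp1 is counted among the 8 but was tested only because of its values on the 2 wild-type replicate 1 arrays, where FO measured 5.75 and MZ 4.23. Its difference is therefore no separate sign of a rise on this array.

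Other genes moved on this array too. All 10 tested immediate early genes, which are induced within minutes by activation or by cell handling, were lower on FO wild-type replicate 1 than on its partner array. Their median was -2.814, and 53.8% of all tested genes were lower there. On that array 8 of the 10 were lowest of the 6 FO arrays (80.0%, against 26.0% of all tested genes). Fosb measured 5.12 and 12.13, and Dusp1 9.04 and 13.80. MZ heterozygous replicate 1 had the same shift of immediate early genes, at a median of -2.157 with 10 of 10 lower (56.5% of all tested genes). Its interferon-response genes had a median of -0.24. The macrophage and monocyte markers were higher on replicate 1 in most groups. Their median difference over the 4 tested was 0.774 in FO wild-type cells, with Lyz2 at 5.49 and 3.69 and Csf1r at 3.45 and 2.24. It was 1.196 in FO heterozygous, 0.99 in FO homozygous, 1.259 in MZ wild-type, 0.548 in MZ heterozygous and 1.018 in MZ homozygous cells. Their summed signal, in log2 units, was 6.46 to 7.14 in FO wild-type, 6.03 to 7.21 in FO heterozygous and 6.70 to 7.81 in FO homozygous arrays. Of 4 markers of plasmacytoid dendritic cells, which make interferon, Siglech was near the lowest value on all 12 arrays. Ccr9 measured 2.97 to 4.0 on the FO arrays, with 3.32 and 3.30 in wild-type cells. Tcf4, which B cells also express, measured 11.97 and 11.67 there, and Bst2 is itself an interferon-response gene. Without Bst2 the summed signal of these markers was 11.68 to 11.98 in FO wild-type, 12.11 to 12.37 in FO heterozygous and 12.13 to 12.26 in FO homozygous arrays. That sum is almost wholly the signal of Tcf4, so it cannot measure the share of plasmacytoid dendritic cells. Of the T cell markers, Cd3e, Cd3g and Cd4 were near the lowest value on all 12 arrays, and Cd8a measured 4.22 to 4.53 on the FO arrays. The neutrophil markers had a summed signal of 3.94 on both FO wild-type arrays. On replicate 1 it was 8.82 in FO heterozygous, 10.60 in FO homozygous, 9.07 in MZ wild-type and 8.42 in MZ homozygous cells, and on their second replicates it was 3.89 to 3.97. In RNA of sorted cells, more cells of a type and more RNA per cell cannot be told apart. The part of these markers and of the immediate early genes in the interferon-response values was not tested.

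The comparison of genotypes asks whether loss of Bcl6 changes these genes in resting B cells. In FO cells no interferon-response gene passed the test between homozygous and wild-type cells (limma, Benjamini-Hochberg adjusted p under 0.05; 0 of 38, against 0.43% of all tested genes), and 2 had an unadjusted p under 0.05 (5.26%, against 6.97%). These were Ifit2, at -1.24 ± 0.45 (SE; adjusted p = 0.561), and Trim25, at 0.47 ± 0.20 (adjusted p = 0.702). Between heterozygous and wild-type cells 0 of 38 passed, as did 0.0% of all tested genes, and 0 had an unadjusted p under 0.05 (1.98% of all). The median difference of the list was -0.269 for homozygous and -0.396 for heterozygous against wild type, with 29 and 33 of 38 values below 0, beside medians of 0 over all tested genes.

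These negative medians depended on the 1 raised wild-type array. Without FO wild-type replicate 1, the median was 0.025 for homozygous and 0.033 for heterozygous against the remaining wild-type array, with 21 of 38 values above 0 in each. Without replicate 2 instead, the medians were -0.740 and -0.805, and Ifit1 alone passed for homozygous against wild type, at -3.62 (limma adjusted p = 0.0181; 0.183% of all tested genes passed). That fit sets only the raised array against the homozygous cells. The 6 effectors of translation and RNA, which stood highest on that array, had a median of -1.228 for homozygous against wild type with all arrays.

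With FO wild-type replicate 1 left out, 5 genes had an unadjusted p under 0.05 for homozygous against wild type, each higher in homozygous cells (5 of 38, against 3.4% of all tested genes) and none past the adjusted threshold. Trim25, a ubiquitin ligase that acts on the RNA sensor RIG-I, differed by 0.76 ± 0.19 (limma adjusted p = 0.360). Lgals3bp, a secreted glycoprotein, differed by 1.45 ± 0.44 (adjusted p = 0.535), and Herc6, the mouse ligase that couples ISG15, by 0.69 ± 0.23 (adjusted p = 0.632). Oas2 differed by 1.19 ± 0.43 (adjusted p = 0.690) and Mx1 by 0.89 ± 0.37 (adjusted p = 0.857). In each fit with a lone wild-type array, that array was assumed to vary like the other groups. Replicate 1 was left out because it was high for the list, which by itself moves differences towards higher in homozygous cells. The remaining wild-type array was the lowest FO array for Trim25 (11.44), Herc6 (7.12), Mx1 (7.16) and Lgals3bp (6.08), but not for Oas2 (7.39). The count of 5 and its direction therefore cannot be read as an effect of the deletion.

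**Figure D3:**
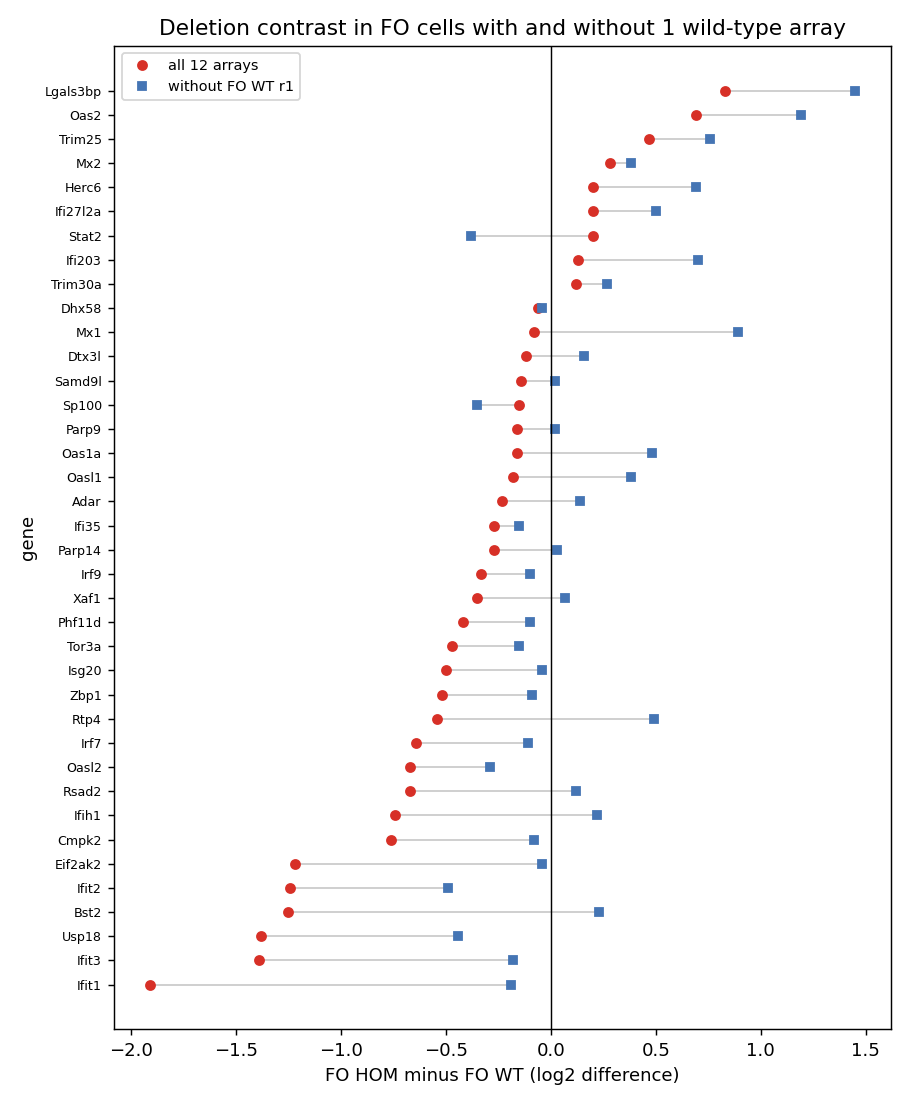
The log2 difference between FO homozygous and FO wild-type cells for each tested gene, from all 12 arrays (red circles) and without FO wild-type replicate 1 (blue squares). The circles lie below 0 for 29 of 38 genes, and the squares for 17 of 38.

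The raised array enters the comparison of homozygous with heterozygous FO cells only through the shared estimate of spread. Here too 0 of 38 genes passed the adjusted test (against 0.0752% of all tested genes), and 2 had an unadjusted p under 0.05 (5.26%, against 3.03%). Oas2 measured 8.71 and 8.44 in homozygous and 7.37 and 7.26 in heterozygous cells, a difference of 1.26 ± 0.41 (SE; limma adjusted p = 0.950). Lgals3bp measured 7.76 and 7.30 against 6.25 and 6.41, a difference of 1.20 ± 0.45 (adjusted p = 1). Trim30a, the third by p, measured 12.46 and 12.61 against 12.17 and 12.14. Both homozygous arrays lay above both heterozygous arrays for 10 of 38 genes (26.3%, against 13.6% of all tested genes), and the list's median difference was 0.085.

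In MZ cells no interferon-response gene passed in any pair of genotypes. The shares of all tested genes that passed were 0.0645% for homozygous against wild type, 0.0107% for heterozygous against wild type and 0.0322% for homozygous against heterozygous. At an unadjusted p under 0.05 the counts were 0, 2 and 1 of 38, beside 6.08%, 3.08% and 5.44% of all tested genes. Lower in heterozygous than wild-type cells were Irf7, at 5.11 and 6.14 against 6.94 and 6.32, and Oasl2, at 3.97 and 5.51 against 7.49 and 5.37 (unadjusted p = 0.0400 and 0.0418, limma adjusted p = 0.792 for each). Leaving out MZ wild-type replicate 2 made Sp100, a nuclear body protein, pass for heterozygous against wild type, at -1.27 (adjusted p = 0.0442; 4.46% of all tested genes passed). The lone wild-type array in that fit is the one with the strong Gapdh end bias, and leaving it out instead turned the difference of Sp100 to 0.14. The 3 smallest p-values for homozygous against wild type belonged to Phf11d, which measured 8.63 and 8.79 against 9.16 and 9.01, to Ifit2, at 8.0 and 8.24 against 9.26 and 8.49, and to Oas1a, at 9.34 and 9.29 against 8.93 and 8.62. The list's medians were -0.145, -0.15 and 0.042, beside -0.076, -0.053 and 0.001 over all tested genes.

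The effect of homozygous deletion was also compared between cell types. In the test of that difference, 0 of 38 genes passed (0.0107% of all tested genes) and 0 had an unadjusted p under 0.05 (3.74%).

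A small set differed alike between homozygous and heterozygous cells in both cell types. Both homozygous arrays lay above both heterozygous arrays in FO and in MZ cells for Oas1a, Oas2, Trim25 and Ifi27l2a (4 of 38, or 10.5%, against 4.74% of all tested genes; in MZ cells alone 7 of 38, or 18.4%, against 18.4%). The opposite held for Ifit2 (1 of 38, or 2.63%, against 3.29%). The place of the wild type differed between these genes. For Oas2, both FO wild-type arrays, at 8.38 and 7.39, lay above both FO heterozygous arrays, the second by little (7.37 and 7.26). The FO wild-type means of Oas1a (8.67) and Ifi27l2a (13.54) also lay above the heterozygous means (8.13 and 13.27). For Trim25, on its strongest probe set, the wild-type mean was the lowest. It was at 11.73, then 11.94 and 12.21 in FO cells, and 11.04, then 11.10 and 11.25, in MZ cells. The FO wild-type means include the raised array. Trim25 measured 11.84 and 12.05 in heterozygous and 12.15 and 12.26 in homozygous FO cells, and 11.05 and 11.15, then 11.21 and 11.30, in MZ cells. Its other probe sets had the pattern in FO cells but not in MZ cells. In MZ cells 1 measured 10.48 and 11.24 in heterozygous and 10.89 and 11.22 in homozygous cells. The weakest measured 5.58 and 5.74, then 6.41 and 5.69, with MZ wild type at 6.28 and 5.59. Ifi27l2a, a mitochondrial protein whose transcript was among the strongest of the list, measured 13.40 and 13.14, then 13.79 and 13.69, in FO cells, and 12.73 and 12.67, then 13.45 and 13.24, in MZ cells. In MZ cells its difference of 0.65 ± 0.25 had an unadjusted p of 0.0297 (limma adjusted p = 0.839). Each of these differences missed the threshold in each cell type, and the genes were picked for this pattern.

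**Figure D4:**
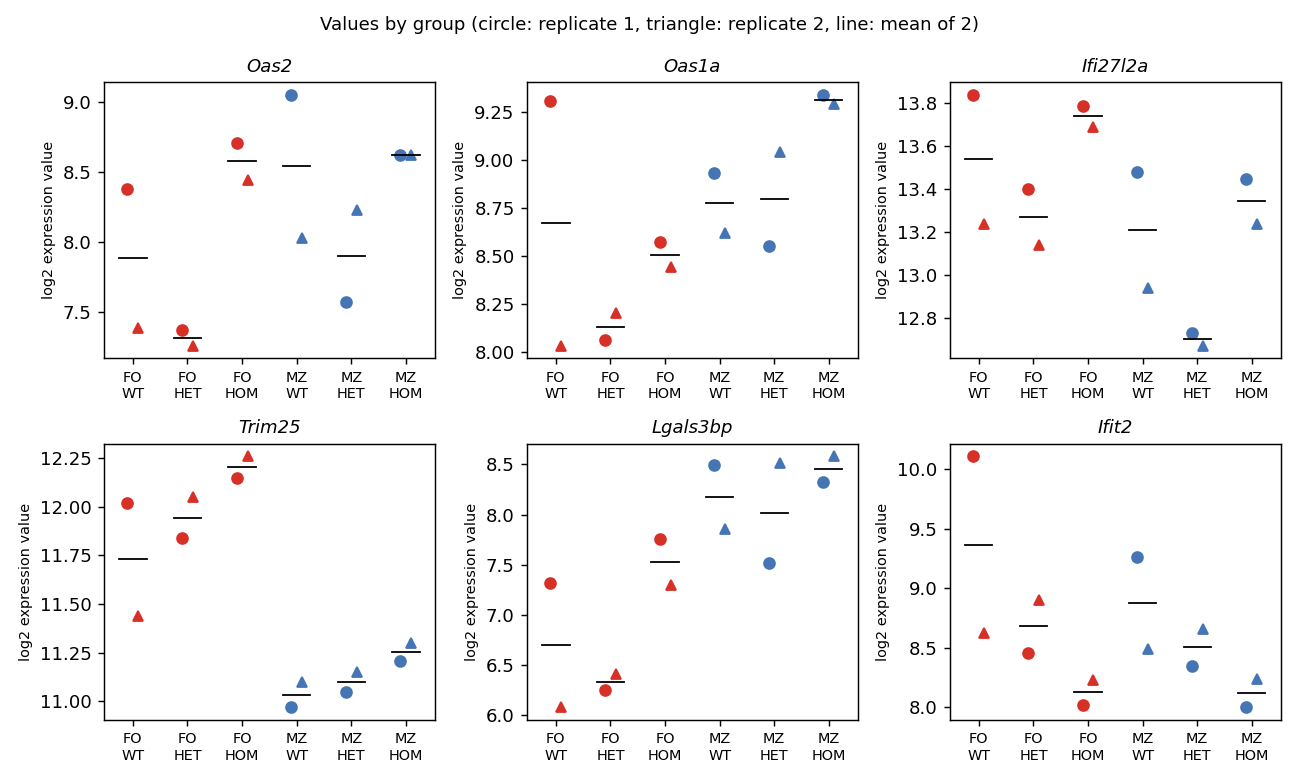
Log2 values of 6 genes on all 12 arrays by group, FO in red and MZ in blue, with replicate 1 as circles, replicate 2 as triangles and lines at the mean of the 2. For Oas2, Oas1a, Ifi27l2a and Trim25 both homozygous points lie above both heterozygous points in each cell type, for Lgals3bp in FO cells alone, and for Ifit2 below them in both.

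Between the cell types, genes of the list differed in both directions. Over the 3 genotypes, 7 genes were higher in MZ cells (18.4%, against 16.2% of all tested genes) and 6 were lower (15.8%, against 28.2%). The list's median was -0.044, beside -0.167 over all tested genes. The lowest value was 2.21262 on every FO array and 2.21924 on every MZ array, so the cell types may have been normalised separately, and a difference in level between them cannot be told apart from such a step. Centring each array on its median moved the median over all tested genes to -0.009 and that of the list to 0.115, and gave 9 higher and 4 lower (22.3% and 18.7% of all tested genes). Quantile normalisation of all arrays gave 7 higher and 4 lower (20.6% and 19.6%).

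Trim25 was lower in MZ cells, with MZ minus FO at -0.83 ± 0.12 (SE; limma adjusted p = 0.000553), with all 6 MZ arrays (10.97 to 11.30) under all 6 FO arrays (11.44 to 12.26), and its other probe sets were lower too. Irf7, which drives the later wave of interferon production, was lower at -1.53 ± 0.24 (adjusted p = 0.00103), at 5.11 to 6.94 against 7.47 to 8.66. Oasl2 was lower at -1.57 ± 0.41 (adjusted p = 0.0136), and its range in MZ cells, 3.97 to 7.49, overlapped with 6.82 to 8.02 in FO cells. Samd9l was lower at -0.83 ± 0.21 (adjusted p = 0.0123), with no overlap between 11.74 to 12.40 and 12.48 to 13.36. It missed the threshold after quantile normalisation (adjusted p = 0.0589).

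Higher in MZ cells were Herc6, by 1.10 ± 0.17 (SE; limma adjusted p = 0.001), at 8.46 to 9.15 against 7.12 to 8.10 in FO cells, and Lgals3bp, by 1.36 ± 0.26 (adjusted p = 0.00321), at 7.52 to 8.58 against 6.08 to 7.76. The 2 ranges of Lgals3bp overlapped. Herc6 was the only tested gene of the list with every MZ array above every FO array (2.63%, against 11.4% of all tested genes), and each of its 4 probe sets had a higher median in MZ cells. With every FO array above every MZ array there were 4, Irf7, Samd9l, Trim25 and Parp14 (10.5%, against 17.0%). Parp14, a mono-ADP-ribosyltransferase, had a difference of -0.33 and did not pass (adjusted p = 0.0512). Trim25, Herc6, Irf7, Lgals3bp and Oasl2 passed with each of the 12 arrays left out in turn and under each of the 9 other alternatives.

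The other 7 calls each fell with some single array left out. Ifih1 was higher by 1.15 (adjusted p = 0.028) and kept its call in 4 of 12 such fits, and Rsad2, higher by 0.86 (0.0326), in 3. Ifit1 was higher by 1.52 (adjusted p = 0.0397) and kept it in 3. Its difference was 2.10 once FO wild-type replicate 1 was left out. It missed the threshold with no filter, with every probe set tested and after quantile normalisation. Ifit1 reached the filter's log2 value of 4 only on the MZ arrays and on FO wild-type replicate 1. The other 5 FO arrays, at 2.94 to 3.39, lay near the lowest value. Its call is therefore no separate sign of a difference between the cell types. Irf9 and Ifi27l2a, at -0.59 and -0.43, kept it in 5 and 3 and missed the threshold with centred or quantile-normalised arrays. Trim30a and Tor3a, higher by 0.37 and 0.47, kept it in 8 and 5 and missed it with the mean of their probe sets. Without FO wild-type replicate 1, 12 genes were higher and 4 lower in MZ cells (15.1% and 26.3% of all tested genes).

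**Figure D5:**
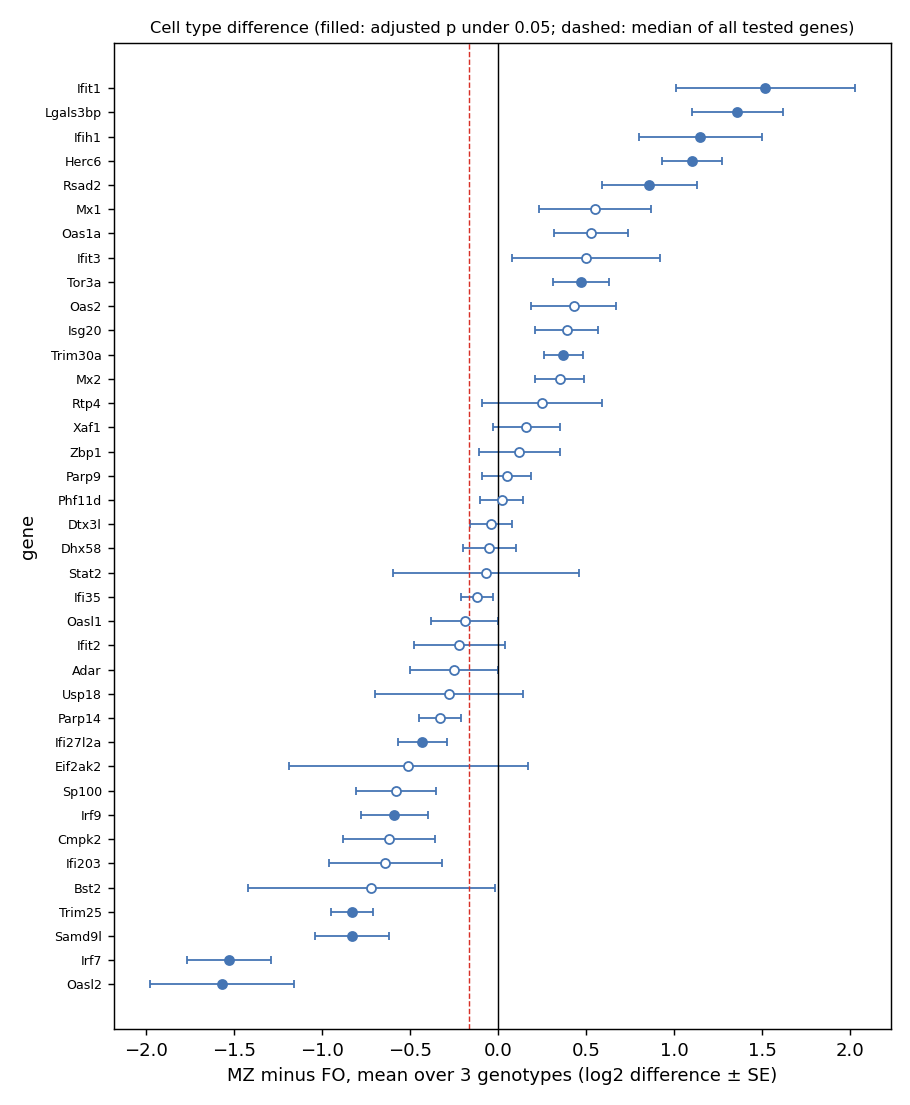
The log2 difference between MZ and FO cells over the 3 genotypes for each tested gene, with bars of 1 SE; filled points have an adjusted p under 0.05, and the dashed line is the median of all tested genes at -0.167. The points run from Oasl2 at -1.57 to Ifit1 at 1.52, with 7 filled points right of 0 and 6 left of it.

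The rest of the pathway was compared in the same way, beside 16.2% of all tested genes higher and 28.2% lower in MZ cells, and with the same limit from the normalisation. Among the 6 tested receptor genes 2 passed and both were lower. Ifnar1, a chain of the type I receptor, was at -1.67 ± 0.23 (SE; limma adjusted p = 0.000471) and Ifnlr1 at -2.10 ± 0.10 (adjusted p = 8.77e-07). Ifnlr1 measured 2.22, the lowest value, on every MZ array and 3.99 to 4.71 on the FO arrays, so it was tested on its FO values alone. Its MZ values had no spread, which lowers its SE and p-value, and the size of its difference is limited by that lowest value. Among 17 kinase, STAT, IRF and adaptor genes 9 were lower, among them Irf2 at -1.55 ± 0.19 and Irf8 at -0.81 ± 0.13, and Tlr7 and Mavs were higher, by 1.04 ± 0.18 and 0.53 ± 0.17. Of the 34 other interferon-responsive genes 6 were higher and 13 lower, and of the 12 best known from the interferon-gamma response 4 were higher and 2 lower, with Gbp8 at 2.50 ± 0.23 and Ciita at -1.66 ± 0.40.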

How the data were processed

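The deposited values are log2 signals for each probe set. Per the submitters' processing notes the authors ran GCRMA, which corrects background by probe sequence and normalises between arrays; its version is not given in the sources used here. RNA was labelled with a GeneChip kit per the labels, and the number of arrays limits the precision. Of 45101 probe sets, 34958 carried 1 gene symbol, 932 several and 9211 none; genes were named through the platform annotation, and 34754 gene numbers matched RefSeq. The analysis fitted the 6 group means with limma 3.58.1 in R 4.3.3 (6 residual degrees of freedom, two-sided, Benjamini-Hochberg over all 9307 tested genes, threshold 0.05) and was tested on simulated data. Array values, ranges or differences were given for genes that passed and for the 8 largest and 4 smallest differences between the FO wild-type arrays. The same holds for the smallest p-values in MZ against FO (4), FO homozygous against heterozygous (3) and MZ homozygous against wild type (3). Ifit3, Oas1a, Ifi203, Trim30a and Phf11d have close paralogues that probes can share. The genes and lists were chosen with earlier results of these data known, so their medians have no test. The alternatives changed the filter, probe set choice, variance model, scaling, arrays and replicate block.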

Additional observations from a re-analysis of the deposited data

How the results depend on the processing

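Leaving out 1 array at a time moved the number of interferon-response genes that passed from 0 to between 0 and 1 for FO homozygous against wild type (Ifit1, without FO wild-type replicate 2) and for MZ heterozygous against wild type (Sp100, without MZ wild-type replicate 2), and from 13 to between 7 and 16 for MZ against FO. The same fits put the list's median between -0.740 and 0.025 for FO homozygous against wild type, between -0.805 and 0.033 for FO heterozygous against wild type, and between -0.178 and 0.532 for the difference of the deletion effect between cell types. Leaving out both wild-type replicate 1 arrays, chosen after seeing the data, gave 0.033 for FO heterozygous against wild type and 16 genes for MZ against FO. Under the other alternatives run, the genotype counts of the list stayed at 0, its MZ against FO count stayed within 1.5 times 13, and its medians moved by less than the within-group SD of 0.326. With the replicate number as a block, 16 genes passed for MZ against FO and 0 in each genotype comparison. The labels do not say what the numbers share. Replicate differences of all genes correlated from 0.452 to 0.768 among FO heterozygous, FO homozygous, MZ wild-type and MZ homozygous cells and by 0.575 between FO wild-type and MZ heterozygous cells, and fell as low as -0.255 in other pairs of groups. Over all tested genes the 40 calls for FO homozygous against wild type ranged from 5 to 24 under the alternatives named for the filter, probe sets and cell types, and without MZ wild-type replicate 2 there were 325 calls for MZ homozygous and 415 for MZ heterozygous against wild type. With no filter 10670 genes and with every probe set 20648 probe sets passed for MZ against FO. With 2 arrays a group, small differences cannot be resolved.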
